A study of Homo sapiens with 9 samples.

Results

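Mitochondrial ribosomal protein genes are the nuclear genes whose products, together with RNAs transcribed from mitochondrial DNA, build the ribosome of the mitochondrion. They were taken as the protein-coding genes with a symbol of MRPL (large subunit) or MRPS (small subunit) followed by a number. Of 70116 gene IDs in the count table, 78 met this rule, 49 of them MRPL and 29 MRPS. After a filter on low counts 73 could be tested (46 MRPL and 27 MRPS), among 19408 genes tested in all.

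Mitochondrial ribosomes translate the few mRNAs of the mitochondrial genome, all of which encode subunits of the respiratory chain and the ATP synthase. The large subunit joins amino acids into the chain and holds its exit tunnel, and the small subunit binds and decodes the mRNA. Every protein of both subunits is translated in the cytosol and imported. Some descend from proteins of the bacterial ribosome, and others are found only in mitochondria.

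Poly(A)-selected RNA was sequenced from U2OS, an established human osteosarcoma cell line, in 3 groups of 3 libraries. The parental wild-type line was given vehicle or palbociclib, and a line in which CRISPR/Cas9 was used to remove PERK, called the knockout here, was given palbociclib. Palbociclib was applied for 4 days. Palbociclib inhibits the cell cycle kinases CDK4 and CDK6, and PERK (gene EIF2AK3) is a stress-sensing kinase of the endoplasmic reticulum. The labels do not say whether the knockout line was a single clone, and knockout cells on vehicle were not analysed here, so genotypes were compared on the drug only. The labels number the libraries by set without saying whether sets were separate cultures, so a p-value here rests on library-to-library spread that may be only technical.

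Library totals ran from 33674039 to 42577874 counts. Levels are given as CPM, the count scaled by the library's size. A gene is called, and is said to have risen or fallen, at an edgeR quasi-likelihood adjusted p under 0.05 over all tested genes. EIF2AK3, the targeted gene, stood at 31.7 to 34.8 CPM on vehicle, at 31.7 to 36.7 in wild-type cells on palbociclib and at 17.7 to 19.7 in the knockout (log2 fold change on the drug -0.89 ± 0.068 SE, edgeR adjusted p = 5.98e-09). Its mRNA was reduced but still present. Of 8 mesenchymal and bone markers 7 were tested, from COL1A1 at 2460 CPM and SPARC at 1730 down to RUNX2 at 36.1 and COL1A2 at 1.42 (means on vehicle), and TWIST1 was nearly absent at 0.07. On palbociclib 6 of the 7 rose in wild-type cells (85.7%, against 21.3% of all tested genes). In the knockout against wild-type cells 1 marker rose (14.3% against 14.9%) and 2 fell (28.6% against 13%). Their summed level was 5958 to 6482 CPM on vehicle, 9187 to 10590 in wild-type cells on palbociclib and 9077 to 11200 in the knockout. Of 6 haematopoietic markers CD3E and HBB were at 0 in every library, and the other 4 stayed under 1 CPM. PTPRC was the 1 tested, at 0.177 to 0.33 CPM on vehicle and 0.412 to 0.552 in wild-type cells on palbociclib (log2 fold change 0.96, edgeR adjusted p = 0.0357). Of 6 epithelial markers 5 were tested. Of these 3 rose on palbociclib in wild-type cells (60% against 21.3%) and 4 fell in the knockout against them (80% against 13%). Their summed level was 654.4 to 688.0 CPM on vehicle, 864.1 to 916.5 in wild-type cells on palbociclib and 566.9 to 589.7 in the knockout. Most of it was KRT8 and KRT18. The part of these marker genes in any result given here was not tested.

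A RefSeq promoter window (GRCh38.p14, 250 bases before to 50 after the transcript start) was found for 70 of the 78 members, MRPS36 under its RefSeq symbol KGD4. Short sequences known as recognition letters of transcription factors were searched on both strands, and their shares were set beside those of 15842 protein-coding promoters of the same length. The letters CCGGAAG, an ETS site of the kind bound by GABP, were in 41.4% of member windows and 14.2% of all. AAGATGGC, the core of a YY1 site, was in 28.6% against 3.91%. GCATGCGC, the core of an NRF1 site, was in 8.57% against 4.26%. At least 1 of these 3 was present in 60.0% of member windows and 20.3% of all. Other letters were near the share of all promoters: GGGCGG (SP1) was in 61.4% against 58.5% and the E-box CACGTG in 10% against 8.88%. TATAAA was in 4.29% against 9.63%, and TGATGNAA, the amino acid response element read by ATF4, in 1.43% against 2.53%. A match describes letters and not a bound site.

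The windows of 5 members whose values are described further on are shown from 170 bases before the RefSeq start to 30 after it, read along the gene, with CCGGAAG and AAGATGGC in capitals (either strand). MRPL48 fell furthest on palbociclib, MRPL51 rose furthest in the knockout, and MRPS26 and MRPS10 fell in the knockout. MRPL24, which rose in the knockout, holds neither motif and is shown for contrast.
MRPL48, chr11:73787704-73787903, plus strand: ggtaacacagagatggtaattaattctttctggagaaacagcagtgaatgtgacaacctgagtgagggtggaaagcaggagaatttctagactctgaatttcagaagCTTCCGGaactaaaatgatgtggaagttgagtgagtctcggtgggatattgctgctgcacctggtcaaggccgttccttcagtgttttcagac
MRPL51, chr12:6493233-6493432, minus strand: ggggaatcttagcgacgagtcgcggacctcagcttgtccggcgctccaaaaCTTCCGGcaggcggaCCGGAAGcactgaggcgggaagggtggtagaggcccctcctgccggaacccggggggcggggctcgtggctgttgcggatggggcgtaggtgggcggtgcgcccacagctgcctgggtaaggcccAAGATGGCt
MRPS26, chr20:3045882-3046081, plus strand: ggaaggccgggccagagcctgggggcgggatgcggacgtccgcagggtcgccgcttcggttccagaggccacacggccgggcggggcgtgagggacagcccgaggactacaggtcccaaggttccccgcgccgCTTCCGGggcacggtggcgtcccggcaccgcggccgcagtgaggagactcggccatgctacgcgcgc
MRPS10, chr6:42217832-42218031, minus strand: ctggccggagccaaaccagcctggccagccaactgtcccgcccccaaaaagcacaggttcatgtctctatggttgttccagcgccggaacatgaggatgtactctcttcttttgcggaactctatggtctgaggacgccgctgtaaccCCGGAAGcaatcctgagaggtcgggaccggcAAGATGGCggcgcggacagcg
MRPL24, chr1:156741059-156741258, minus strand: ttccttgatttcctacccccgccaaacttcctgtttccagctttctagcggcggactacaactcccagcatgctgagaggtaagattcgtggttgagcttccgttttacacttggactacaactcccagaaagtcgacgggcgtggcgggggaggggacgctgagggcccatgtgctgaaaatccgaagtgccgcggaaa
MRPL51 holds CCGGAAG 2 times and AAGATGGC once, the latter within the first 30 transcribed bases, as in MRPS10. MRPL48 and MRPS26 hold CCGGAAG 1 time each, on the reverse strand.

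Levels per kilobase of exon (mean CPM per kb over the 9 libraries) spanned a wide range. MRPL33, a large subunit protein with a bacterial counterpart, was highest at 186 CPM per kb (170 to 201 across libraries). MRPL51, a mitochondria-specific protein of the large subunit, followed at 104 (87.9 to 129), and MRPS15 of the small subunit at 77.3 (68.3 to 86.6). MRPL18 at 76.6 (69.0 to 86.2) overlapped MRPS15 across libraries, so these neighbours in the order did not differ beyond their spread. The lowest tested members were MRPL38 at 2.17 (1.89 to 2.61), MRPL2 at 1.73 (1.36 to 2.05) and MRPS24 at 1.70 (1.26 to 2.31), which overlapped each other. The exons of all 3 overlap those of another annotated gene, as do those of 32 members in all, and reads shared between genes may be lost or moved in counting. Among the members named for their changes these are MRPS24, MRPL4, MRPL51, MRPL28, MRPS25, MRPS18A and MRPS18C.

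The 5 untested members had almost no counts. MRPL53, MRPL23 and MRPS18B had 0 counts over all 9 libraries, MRPS12 had 1 and MRPL45 had 8. A count of 0 allows up to 3 counts, counting error only. The protein-coding genes within 200 kb were often near 0 as well, with fewer than 10 counts in 14 of 14 around MRPS18B, 16 of 18 around MRPS12, 8 of 13 around MRPL23, 3 of 5 around MRPL45 and 2 of 23 around MRPL53. Among them were genes that most cells express, such as ACTN4 with 3 counts, HNRNPL with 1 and TUBB with 5. Zeros in such regions therefore cannot be read as absence of expression. Around MRPL53 few neighbours were near 0, and whether its 0 reflects absence of expression was not tested. The table also lists 81 pseudogene IDs named after members. Of these 46 were at 0, and all 81 took 1058 counts against 1204937 for the members. MRPL45P2, with 446 counts, had more than MRPL45 itself.

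Summed over the symbols, both subunits were lower on palbociclib and lay in between in the knockout. The large subunit sum was 2494, 2451 and 2539 CPM in the 3 vehicle libraries, 2154, 2183 and 2141 in wild-type cells on palbociclib, and 2394, 2324 and 2266 in the knockout. The small subunit sum was 1270, 1241 and 1247 CPM on vehicle, 1107, 1111 and 1104 in wild-type cells on palbociclib, and 1207, 1170 and 1137 in the knockout. In both sums the 3 groups did not overlap. All members together came to 3747 ± 49 CPM on vehicle and 3267 ± 25 in wild-type cells on palbociclib, 87.2% of vehicle (mean ± SD, n = 3). The knockout stood at 3499 ± 99 CPM, 93.4% of vehicle. The ratio of the large to the small sum was 1.99 ± 0.044, 1.95 ± 0.015 and 1.99 ± 0.0058 in the same order (SD, n = 3), and its libraries overlapped between vehicle and both other groups. Between the drug groups they did not, at 1.94 to 1.97 in wild-type cells and 1.98 to 1.99 in the knockout. In bulk RNA a lower sum per cell and fewer cells expressing the genes cannot be told apart.

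**Figure D1:**
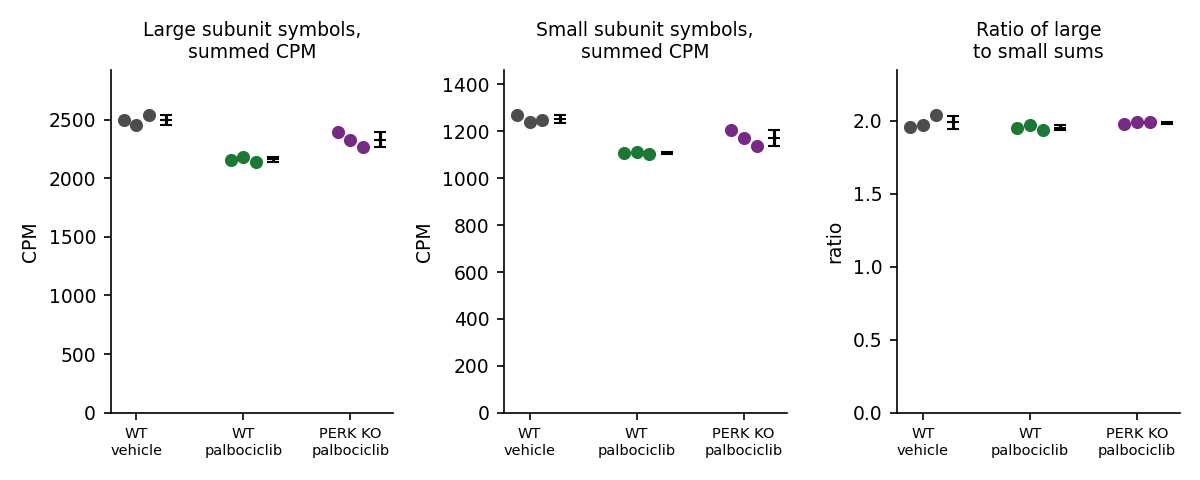
Summed CPM of the large and the small subunit symbols and their ratio, with 1 point per library and the mean ± SD (n = 3) beside them. Both sums are lowest in the 3 wild-type libraries on palbociclib, while the ratio stays between 1.94 and 2.04 in every library.

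The first comparison asked how palbociclib changed these genes in wild-type cells. Of 73 tested members 49 fell and 2 rose, so 69.9% were called against 43.7% of all tested genes. Members that fell made up 67.1%, against 22.3% of all tested genes, and members that rose 2.74%, against 21.3%. The median log2 fold change of the members was -0.22, or -14.3%, beside -0.02 over all tested genes. The ranges of the 2 groups did not overlap in 75.3% of members and in 51.6% of all tested genes. Among genes with a mean of at least 10 CPM, 67.2% of 67 members and 32.8% of all fell.

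In both subunits far more genes fell than rose. Of 46 MRPL genes 33 fell and 1 rose, with a median of -0.23, and of 27 MRPS genes 16 fell and 1 rose, with a median of -0.18. The medians differed by -0.045 (log2, large minus small). Within a group the large minus small difference of median log2 levels had an SD between libraries of up to 0.0843. That SD is of levels in single libraries, so whether the fold changes of the subunits differ was not tested. MRPS30 and MRPS18A sit in the large subunit by structure, and moving them there left a difference of -0.009. By origin, 14 of 17 mitochondria-specific large subunit genes fell, as did 19 of 29 with a bacterial counterpart. In the small subunit the counts were 7 of 11 and 9 of 16.

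MRPL48, a mitochondria-specific protein of the large subunit (ENSG00000175581.14, chromosome 11, 73787316 to 73865133, GRCh38), had the steepest fall. It stood at 36.8, 36.4 and 36.1 CPM on vehicle, at 21.9, 23.6 and 21.7 in wild-type cells on palbociclib and at 22.3, 19.9 and 19.9 in the knockout. Every library on the drug lay below every vehicle library, and the 2 drug groups overlapped. The log2 fold change on palbociclib was -0.70 ± 0.063 SE (edgeR adjusted p = 3.11e-08).

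MRPL1, of the large subunit's side stalk, near which spent tRNA leaves (chromosome 4, 77862520 to 77952790), stood at 36.3, 36.8 and 38.9 CPM on vehicle. It stood at 25.5, 27.2 and 26.1 in wild-type cells on palbociclib and at 25.7, 24.2 and 26.6 in the knockout. The drug groups overlapped and both lay below vehicle (log2 fold change -0.51 ± 0.059 SE, edgeR adjusted p = 9.39e-07). MRPL39, mitochondria-specific, went from 38.0, 38.4 and 41.9 CPM to 29.5, 30.3 and 27.1 (-0.44 ± 0.066 SE, edgeR adjusted p = 1.57e-05). MRPL11, a protein of the stalk base where translation factors dock, went from 73.2, 70.7 and 75.8 CPM to 52.5, 56.2 and 54.9 (-0.42 ± 0.054 SE). In both genes all drug libraries were below all vehicle libraries.

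MRPL4 and MRPL22 line the exit tunnel of the large subunit. MRPL4 fell from 42.6, 39.1 and 38.8 CPM to 31.8, 31.8 and 28.3 (log2 fold change -0.39 ± 0.065 SE), and MRPL22 from 38.9, 39.2 and 40.6 CPM to 30.9, 30 and 30.3 (-0.38 ± 0.054 SE). Neither overlapped its vehicle libraries. In the small subunit MRPS5, near the mRNA entry site, fell from 22.3, 22.4 and 25.4 CPM to 16.3, 16.3 and 20.2 (-0.41 ± 0.090 SE, edgeR adjusted p = 0.0011). Set 3 was the highest in each of the 3 groups. MRPS5 and MRPS34 were the 2 of 73 members that differed between sets, against 8.07% of all tested genes. MRPS24, a small subunit protein with few counts, stood at 1.82, 1.82 and 1.38 CPM on vehicle and at 1.12, 1.13 and 1.10 on palbociclib (-0.58 ± 0.22 SE, edgeR adjusted p = 0.0361). Its call was lost under 7 of the alternatives, 5 of them the removal of 1 library, where the adjusted p was 0.0722 to 0.115.

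The 2 members that rose were MRPS33 and MRPL41, both mitochondria-specific. MRPS33 of the small subunit stood at 22.1, 22.2 and 20.5 CPM on vehicle and at 24.7, 24.3 and 25.6 on palbociclib (log2 fold change 0.20 ± 0.061 SE, edgeR adjusted p = 0.0112). Without vehicle library 3, the lowest, its adjusted p was 0.059. MRPL41 of the large subunit stood at 43.5, 43.3 and 39.6 CPM on vehicle and at 46.6, 46.1 and 45.8 on palbociclib (0.13 ± 0.052 SE, edgeR adjusted p = 0.0487). Its groups did not overlap, and its call was lost under 9 alternatives, with an adjusted p of 0.0541 to 0.231. Without vehicle library 3 its log2 fold change was 0.085. The remaining 22 tested members were not called. With the set as a block MRPL44 (-0.14, edgeR adjusted p = 0.034) and MRPS31 (-0.17, 0.048) were called lower as well.

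**Figure D2:**
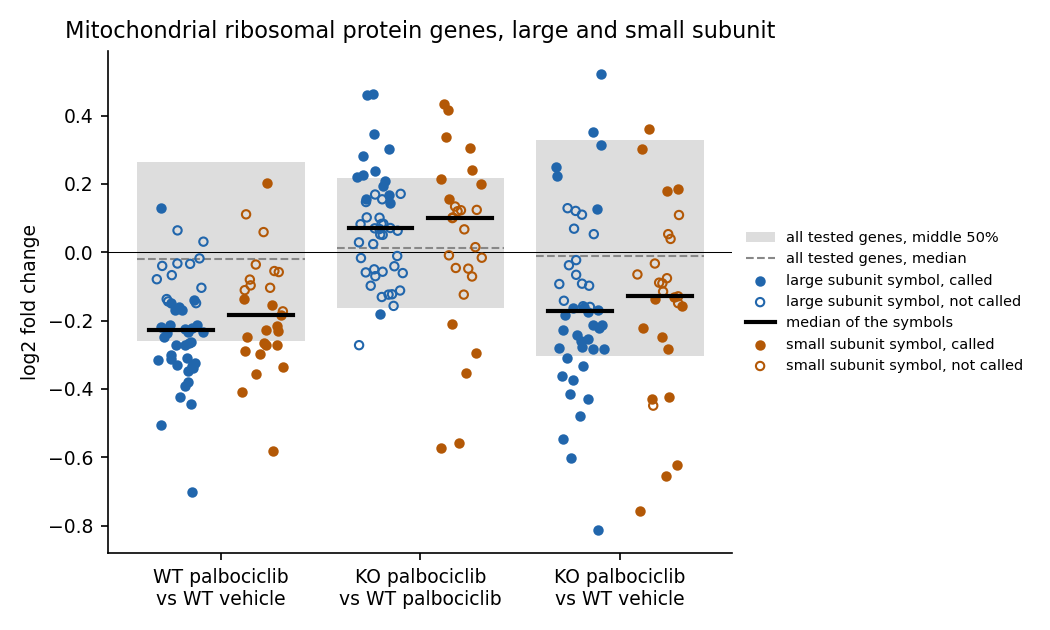
Log2 fold change of each tested member in the 3 comparisons (filled where called), with black bars for the subunit medians and, in grey, the middle 50% and the median of all tested genes. On palbociclib the medians of the large (-0.23) and small (-0.18) symbols lie below the -0.02 of all genes, and in knockout against wild-type cells they lie at 0.07 and 0.10 against 0.01.

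The second comparison set knockout against wild-type cells, both on palbociclib. It shares the wild-type palbociclib libraries with the first, so values are only given side by side. Of 73 members 21 rose and 6 fell, so 37.0% were called against 27.9% of all tested genes. Members that rose made up 28.8%, against 14.9% of all, and members that fell 8.22%, against 13%. The median log2 fold change was 0.07 beside 0.01 over all tested genes, and the ranges were apart in 49.3% of members and 41.3% of all. Among genes with a mean of at least 10 CPM, 31.3% of 67 members and 20.3% of all rose, and 8.96% and 18.4% fell. Of 46 MRPL genes 13 rose and 1 fell (median 0.07), and of 27 MRPS genes 8 rose and 5 fell (median 0.10). Whether the subunit medians differ was again not tested. Of the 11 mitochondria-specific small subunit genes 6 rose, MRPS36 among them, and 1 fell, and of the 16 with a bacterial counterpart 2 rose and 4 fell. Whether these 2 groups of genes differ was not tested.

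MRPL51 (ENSG00000111639.8, chromosome 12, 6491886 to 6493841, GRCh38) rose furthest. It stood at 157, 153 and 165 CPM on vehicle, at 137, 137 and 136 in wild-type cells on palbociclib and at 200, 181 and 184 in the knockout. The 3 groups did not overlap, with the knockout above vehicle. The log2 fold change on the drug was 0.46 ± 0.050 SE (edgeR adjusted p = 6.57e-07). Its exons overlap NCAPD2 on the opposite strand, which rose too (0.39, edgeR adjusted p = 0.000112) and fell on palbociclib in wild-type cells (-0.63), and whether counting used the strand is not given in the sources used here. MRPL10, a stalk protein of the large subunit (chromosome 17, 47823272 to 47831534), stood at 53.0, 52.0 and 54.3 CPM on vehicle, at 56.8, 55.4 and 54.3 in wild-type cells on palbociclib and at 80.0, 72.9 and 75.8 in the knockout. The wild-type groups met at 54.3 and the knockout lay above both (0.46 ± 0.050 SE, edgeR adjusted p = 7.19e-07).

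In the small subunit MRPS27, a pentatricopeptide repeat protein (chromosome 5, 72219409 to 72320646), stood at 103, 103 and 105 CPM on vehicle, 87.9, 85.8 and 87.9 in wild-type cells on palbociclib and 122, 114 and 117 in the knockout. The knockout was above both wild-type groups without overlap (log2 fold change 0.43 ± 0.046 SE, edgeR adjusted p = 5.27e-07). MRPS36, also known as KGD4 and assigned to the oxoglutarate dehydrogenase complex, is counted here by its symbol. It stood at 11.9, 11.5 and 13 CPM, 11.3, 12.1 and 11.6, and 15, 16.4 and 15.4 in the same order of groups (0.42 ± 0.079 SE, edgeR adjusted p = 0.000467). Its 2 wild-type groups overlapped and the knockout lay above them. MRPS34, mitochondria-specific, went from 67.8, 66.1 and 59.7 CPM in wild-type cells on palbociclib to 85.0, 85.6 and 74.1 (0.34 ± 0.066 SE), and was lowest in set 3 of every group.

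MRPL24 of the large subunit (chromosome 1, 156737303 to 156741590) overlapped between the wild-type groups, at 65.8, 61.6 and 63.3 CPM on vehicle and 63.3, 59.6 and 63.5 on palbociclib. The knockout stood above both at 78.0, 80.0 and 78.9 (log2 fold change 0.35 ± 0.049 SE, edgeR adjusted p = 1.73e-05). MRPL28 went from 82.5, 84.9 and 86.1 CPM in wild-type cells on palbociclib to 107, 106 and 99.5 (0.30 ± 0.051 SE). MRPS25 went from 16.8, 19.7 and 23.5 CPM to 24, 23.8 and 26.4 (0.30 ± 0.091 SE, edgeR adjusted p = 0.0185). Its groups nearly met, and the call was lost without any 1 of 3 libraries (wild-type palbociclib 1 or 2, knockout 3), at an adjusted p of 0.068 to 0.101. Without wild-type palbociclib 1 its log2 fold change was 0.20. The other 13 that rose had log2 fold changes of 0.14 to 0.28.

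The steepest fall was in MRPS26, a mitochondria-specific protein of the small subunit (ENSG00000125901.6, chromosome 20, 3045945 to 3048254, GRCh38). It stood at 39.1, 35.6 and 32.8 CPM on vehicle, at 31.9, 32.7 and 30 in wild-type cells on palbociclib and at 21.3, 22.5 and 19.8 in the knockout, which lay below all wild-type libraries (log2 fold change -0.57 ± 0.070 SE, edgeR adjusted p = 3.25e-06). MRPS14 (chromosome 1, 175010789 to 175023425), a protein of the small subunit head, stood at 23.9, 22.2 and 23.8 CPM on vehicle, 20.1, 21.5 and 23.6 in wild-type cells on palbociclib and 16.1, 14 and 14.3 in the knockout (-0.56 ± 0.077 SE, edgeR adjusted p = 1.32e-05). Its wild-type groups overlapped and the knockout lay below them. MRPS10, also of the head, went from 84.5, 85.0 and 84.8 CPM on vehicle to 78.4, 77.3 and 75.9 in wild-type cells on palbociclib and 65.2, 62.0 and 61.6 in the knockout (-0.29 ± 0.047 SE). Its 3 groups were apart at each step.

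The paralogs MRPS18A, MRPS18B and MRPS18C descend from a single bacterial protein, and MRPS18A now sits in the large subunit. MRPS18C fell from 19.2, 19 and 18.5 CPM on vehicle to 15.4, 16.2 and 15.4 in wild-type cells on palbociclib and to 12.8, 11.7 and 12.2 in the knockout (knockout against wild-type on the drug -0.35 ± 0.072 SE, edgeR adjusted p = 0.000886). MRPS18A stood at 20.4, 19.1 and 18.7 CPM, 19.5, 18.3 and 19, and 16.5, 16.6 and 16 in the same order (-0.21 ± 0.068 SE, edgeR adjusted p = 0.0248). Its wild-type groups overlapped. Its call was lost without any 1 of 4 libraries (wild-type palbociclib 1, or any knockout library), at an adjusted p of 0.0513 to 0.0957. MRPL14 went from 68.2, 72.9 and 72.2 CPM to 60.9, 66.7 and 60.8 (-0.18 ± 0.052 SE, edgeR adjusted p = 0.0124), a call lost without wild-type palbociclib 2 or knockout 1 or 3 (0.059 to 0.0662). With the set as a block 4 more members were called, MRPL57 (0.17, edgeR adjusted p = 0.0312) and MRPS23 (0.12, 0.0304) higher and MRPL39 (-0.16, 0.0405) and MRPL30 (-0.12, 0.0469) lower.

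**Figure D3:**
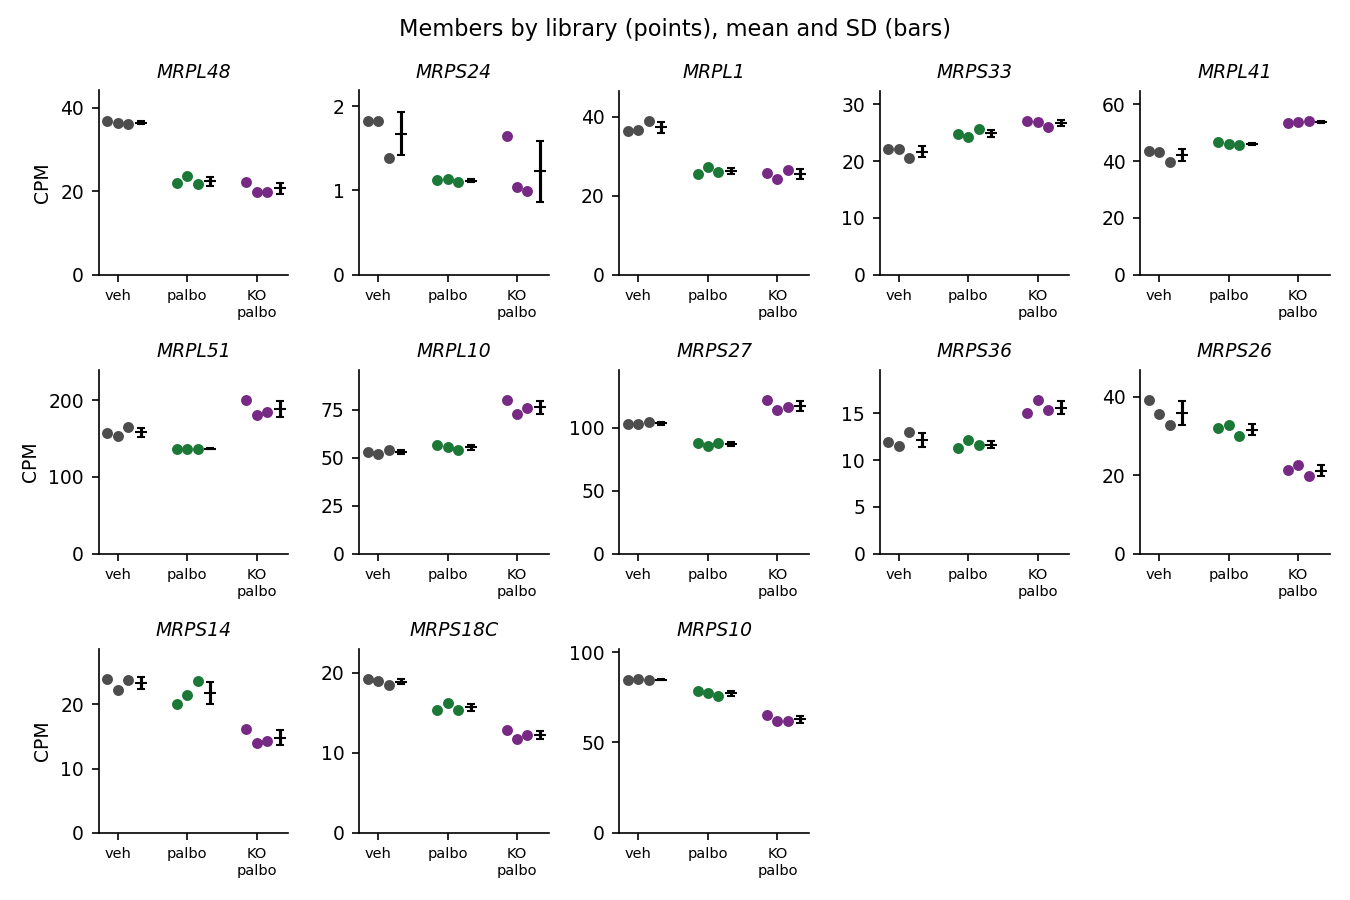
CPM of 13 named members in wild-type cells on vehicle (veh), wild-type cells on palbociclib (palbo) and the knockout on palbociclib (KO palbo), with 1 point per library and the mean ± SD (n = 3) beside them. MRPL48 and MRPL1 are low in both drug groups, MRPL51, MRPL10, MRPS27 and MRPS36 are highest in the knockout, and MRPS26, MRPS14, MRPS18C and MRPS10 are lowest there.

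Most members that moved in the knockout lay in regions where other genes moved the same way. For each member the median log2 fold change of the other tested genes within 5 Mb on either side (20 to 252 genes) was taken. In knockout against wild-type cells on the drug it ran from -0.59 to 0.33, and of the 21 members that rose 19 had a positive value, while all 6 that fell had a negative one. All 10 members whose value was over 0.2 rose, and 5 of the 6 under -0.2 fell, the exception being MRPL2 (-0.27, edgeR adjusted p = 0.142). Across the 73 members, which share libraries and in part windows, Pearson's r was 0.82 and Spearman's rho 0.70, given as a description. The SD of the members' log2 fold changes was 0.202, and 0.116 after the value of the region was subtracted, with a median of 0.04 left. Windows of 1, 2.5 and 10 Mb gave r of 0.73, 0.79 and 0.81. The same was not counted for other tested genes, so following the region is not shown to be particular to the members. Why neighbouring genes moved together was not tested.

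On chromosome 6, between 42206801 and 44127457, MRPS10, MRPL2, MRPS18A and MRPL14 had log2 fold changes of -0.29, -0.27, -0.21 and -0.18, beside regional medians of -0.25, -0.24, -0.24 and -0.24. MRPS26 at -0.57 lay in a region at -0.59, and MRPS14 at -0.56 in one at -0.44. Among those that rose, MRPL10 (0.46) and MRPL27 (0.21) lay on chromosome 17 in regions at 0.33, MRPL51 (0.46) on chromosome 12 in one at 0.28, and MRPL28 (0.30) and MRPS34 (0.34) on chromosome 16 in regions at 0.23. The members farthest above their regions were MRPL24 (0.35 against -0.07, 178 genes), MRPS27 (0.43 against 0.17) and MRPS28 (0.12 against -0.10). Farthest below were MRPL39 (-0.16 against 0.12, 20 genes), MRPS18C (-0.35 against -0.15) and MRPS2 (-0.07 against 0.05).

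On palbociclib in wild-type cells the regional medians ran from -0.20 to 0.19, r across members was 0.16, and 0.00, 0.04 and 0.13 with 1, 2.5 and 10 Mb. Of the 49 members that fell 35 had a negative regional median, and of the 2 that rose 1 had a positive one. The members' median was -0.22 before and -0.19 after subtraction with 5 Mb. With 1, 2.5 and 10 Mb it was -0.146, -0.167 and -0.187 after subtraction. MRPL48 at -0.70 lay in a region at -0.01.

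**Figure D4:**
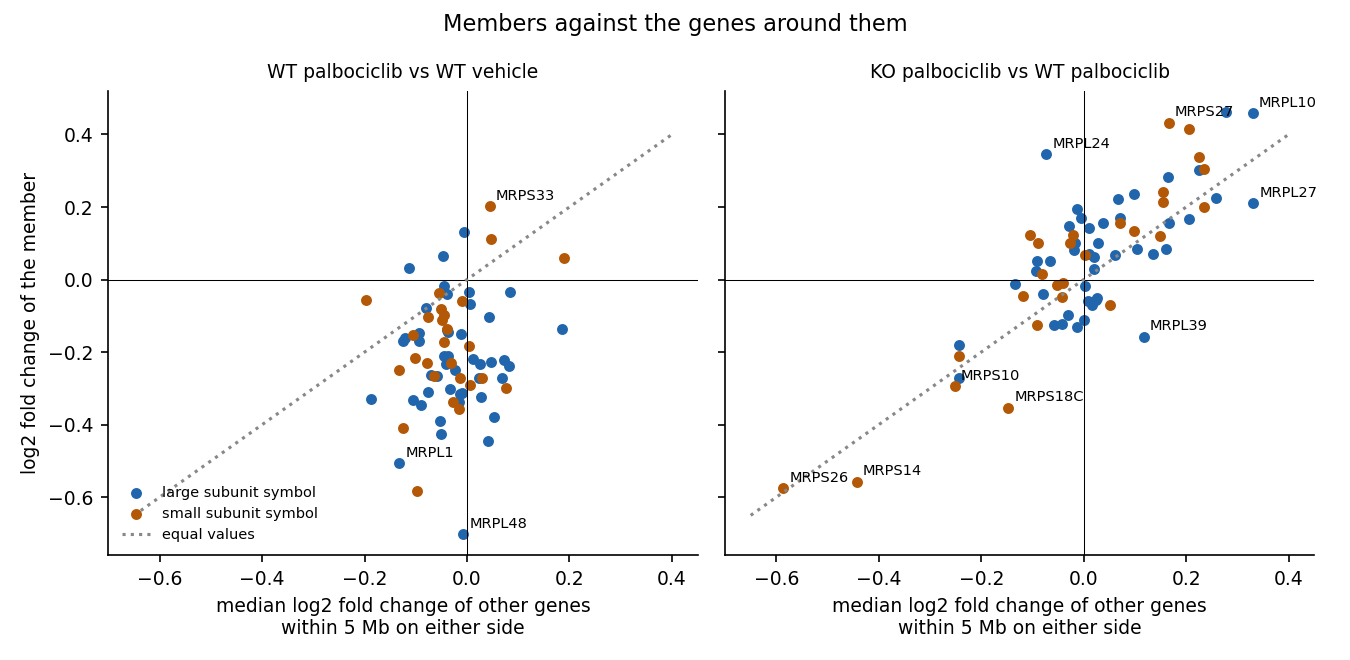
Log2 fold change of each member against the median of the other tested genes within 5 Mb on either side, on palbociclib in wild-type cells (left) and in knockout against wild-type cells on the drug (right). The dotted line marks equal values, and the points follow it on the right (r = 0.82) more closely than on the left (r = 0.16).

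The third comparison, knockout cells on the drug against the vehicle group, changes genotype and drug together and shares libraries with the other 2. Of 73 members 10 rose and 37 fell, so 64.4% were called against 51.7% of all tested genes. Those that rose made up 13.7% (25.7% of all) and those that fell 50.7% (26.0% of all), with a median log2 fold change of -0.16 beside -0.01. Of MRPL genes 6 rose and 26 fell, and of MRPS genes 4 and 11. MRPL48 (-0.81 ± 0.063 SE), MRPS26 (-0.76 ± 0.070), MRPS14 (-0.65 ± 0.076) and MRPS18C (-0.62 ± 0.071) fell furthest. MRPL10 (0.52 ± 0.050), MRPS36 (0.36 ± 0.078), MRPL41 (0.35 ± 0.052) and MRPL24 (0.31 ± 0.048) rose furthest. MRPL41 stood at 53.4, 53.8 and 54.1 CPM in the knockout, above every wild-type library.

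Of the 78 members 29 lie head to head with a protein-coding gene on the other strand, with gene starts within 1000 bases. Both genes were tested in 26 pairs, counting MRPL46 and MRPS11 from either side, and in 18 of the 26 they had the same sign on palbociclib in wild-type cells. In the knockout against wild-type cells on the drug it was 19, and in the knockout against vehicle 17. How often other gene pairs match in sign was not counted. On palbociclib in wild-type cells 67 of the 73 tested members had a negative value. Partners that fell included SKA3 beside MRPL57 (log2 fold change -0.75 against -0.33), NCAPD2 beside MRPL51 (-0.63 against -0.21), EME1 beside MRPL27 (-0.53 against -0.30) and MTBP beside MRPL13 (-0.56 against -0.33). TCP1, a chaperonin subunit beside MRPL18, fell too (-0.41 against -0.27). Others did not follow the member. TMEM63B rose beside MRPL14 (0.22 against -0.04, edgeR adjusted p of the partner 0.00162), and FAU beside MRPL49, which fell, stood at 0.01 (0.945). MRPL46 and MRPS11, which lie head to head, went -0.31 (edgeR adjusted p = 0.0402) and -0.10 (0.152). The 7 partners that are no members were chosen after their values were seen.

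Other genes of mitochondrial translation were counted in the same fit. Of the 5 subunits with other symbols 4 fell on palbociclib: PTCD3 (log2 fold change -0.23), GADD45GIP1 (-0.17), CHCHD1 (-0.17) and AURKAIP1 (-0.16). DAP3, a GTP-binding protein of the small subunit, stood at 101, 104 and 97.3 CPM on vehicle and 103, 104 and 103 on the drug, and none of the 5 was called by edgeR in the knockout against wild-type cells (0 at an unadjusted p under 0.05, 0 by DESeq2 and 0 by limma-voom). Of 29 assembly and rRNA factors 8 fell (27.6%, against 22.3% of all tested genes) and 1 rose (3.45% against 21.3%) on palbociclib, with a median of -0.12. In the knockout 7 rose (24.1% against 14.9%) and 5 fell (17.2% against 13%), with a median of 0.03. METTL17, an assembly factor of the small subunit, fell on the drug (-0.36, edgeR adjusted p = 1.07e-05) and rose in the knockout (0.32, 8.01e-05). AFG3L2, a protease needed for maturation of a large subunit protein, fell in the knockout (-0.73, edgeR adjusted p = 4.61e-09). Of 14 translation factors 6 fell (42.9% against 22.3%) and 2 rose (14.3% against 21.3%) on the drug (median -0.12). In the knockout 3 of them rose (21.4% against 14.9%) and 1 fell (7.14% against 13%), with a median of 0.04. The elongation factor TUFM rose furthest there (0.38).

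Of 17 mitochondrial aminoacyl-tRNA synthetases 15 were tested, since SARS2 and VARS2 were at 0 counts. On palbociclib 7 fell (46.7%, against 22.3% of all tested genes) and 1 rose (6.67% against 21.3%), with a median of -0.04. In the knockout 4 rose (26.7% against 14.9%) and 1 fell (6.67% against 13%), with a median of 0.01. With the set as a block 2 fell there. Of 26 genes of mtDNA maintenance, transcription and RNA processing 14 fell on palbociclib (53.8% against 22.3%, median -0.17), TFAM among them (-0.38). By edgeR 0 rose, as by DESeq2, by limma-voom and at an unadjusted p under 0.05, while with the set as a block REXO2 was called higher (0.11, edgeR adjusted p = 0.0334). In the knockout 4 rose and 3 fell, 15.4% and 11.5%, near the 14.9% and 13% of all tested genes, and with the set as a block 4 rose and 7 fell. None of the 13 mRNAs that mitochondrial ribosomes translate was called by edgeR in either comparison (0 at an unadjusted p under 0.05, 0 by DESeq2 and 0 by limma-voom), with medians of 0.09 on palbociclib and 0.04 in the knockout. All 13 differed between sets. With the set as a block edgeR called 5 on palbociclib, MT-ND6 (0.26, adjusted p = 0.000201), MT-ND5 (0.17, 0.0108), MT-CO1 (0.19, 0.0199) and MT-CO2 (0.17, 0.042) higher and MT-ND2 (-0.19, 0.000449) lower, and 0 in the knockout against wild-type cells.

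Nuclear respiratory chain subunits, which join the products of mitochondrial translation, had 29 of 72 lower (40.3%) and 3 higher (4.17%) on palbociclib. Their median was -0.10, and with the set as a block 32 were lower and 6 higher. In the knockout 29 were higher (40.3%) and 3 lower (4.17%), with a median of 0.11. Of all tested genes 22.3% fell and 21.3% rose on palbociclib, and 14.9% rose and 13% fell in the knockout. Cytosolic ribosomal proteins had 5 higher and 5 lower of 73 on palbociclib (6.85% each, median 0.01), or 13 higher and 12 lower with the set as a block. In the knockout 63 of them were higher (86.3%) and 1 lower (1.37%), with a median of 0.27. Of these genes 9 differed between sets. The share of members that fell on the drug was 67.1% and that of cytosolic ribosomal proteins 6.85%. In the knockout 28.8% of members and 86.3% of cytosolic ribosomal proteins rose. Reads of cytosolic ribosomal protein genes can be split with near-identical pseudogenes, and 8 of 81 listed were not tested.

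Of 16 regulators linked to nuclear genes for mitochondrial proteins, 10 fell on palbociclib (62.5%, against 22.3% of all tested genes). Another 3 rose (18.8%, near the 21.3% of all), and the median was -0.29. NRF1 mRNA fell from 25.1 to 15.9 CPM (means, log2 fold change -0.66, edgeR adjusted p = 1.42e-07), GABPB1 from 36.3 to 23.9 (-0.60, 1.8e-07), GABPA from 56.1 to 44.8 (-0.32) and YY1 from 128 to 116 (-0.14). PPRC1, a coactivator of this family, fell (-0.34), as did PPARGC1B (-0.69), SP1 (-0.37) and ATF5 (-0.255). PPARGC1A (-1.17) and MYCN (-1.935) fell from low vehicle means of 1.32 and 1.27 CPM. MYC (0.35), ESRRA (0.23) and MAX (0.19) rose. In the knockout 3 fell and 2 rose, 18.8% and 12.5% against 13% and 14.9% of all tested genes. GABPA (-0.21), ATF4 (-0.17) and ATF5 (-0.28) were lower and PPARGC1B (0.61) and ESRRA (0.16) higher. PPARGC1B had means of 10.9 CPM on vehicle, 6.75 in wild-type cells on palbociclib and 10.3 in the knockout. On palbociclib tested members with CCGGAAG in their window had a median of -0.184 (27 genes), and those without it -0.231 (39). The medians with and without were -0.237 (17) and -0.184 (49) for AAGATGGC, and -0.232 (5) and -0.219 (61) for GCATGCGC. For GGGCGG they were -0.171 (40) and -0.258 (26). What any of these letters or mRNAs has to do with the members was not tested.

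**Figure D5:**
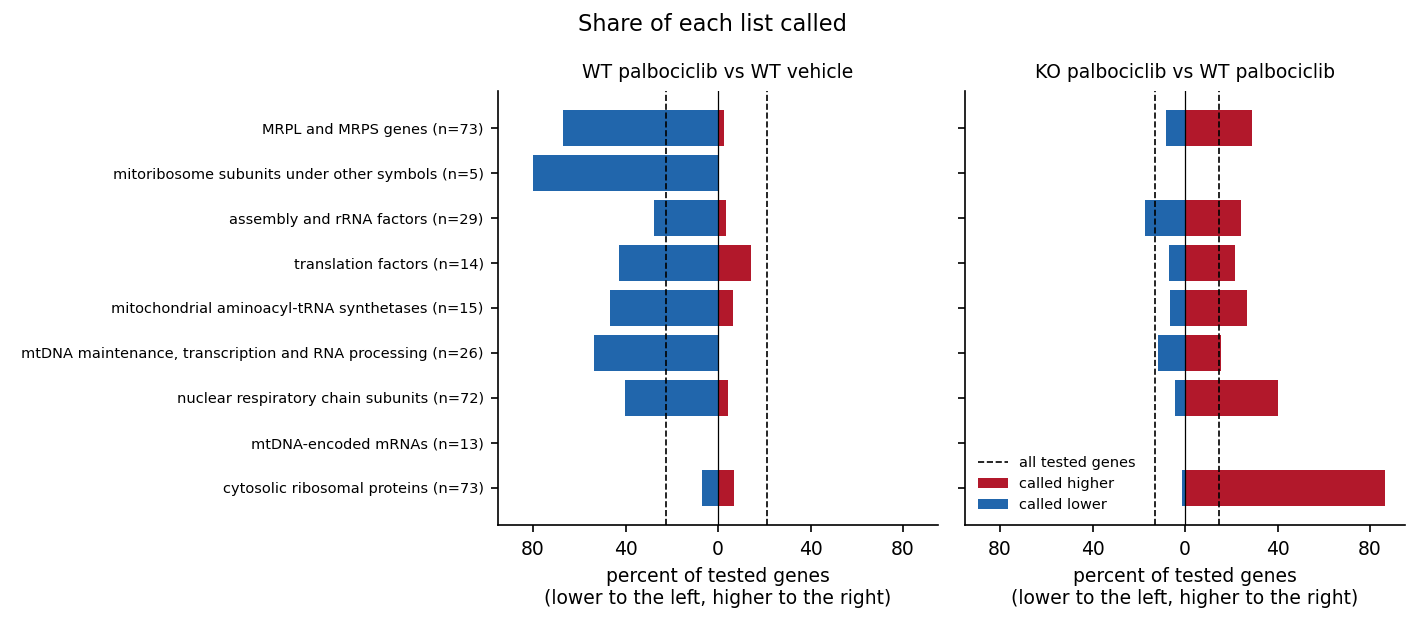
Percent of the tested genes of each list that rose (red) or fell (blue) on palbociclib in wild-type cells (left) and in knockout against wild-type cells on the drug (right), with dashed lines for all tested genes. The members stand at 67.1% lower on the left and 28.8% higher on the right, and cytosolic ribosomal proteins at 6.85% lower and 86.3% higher.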

How the data were processed

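Per the labels' protocols, libraries were made from fragmented poly(A) RNA with random hexamer priming. The deposited values are raw read counts per gene, 1 column per library. Per the submitters' processing notes tools named for the build hg38 included STAR 2.7.9a. How reads were assigned to genes (program, strand, annotation) is not given in the sources used here. The members and lists were chosen with earlier results of these data known.

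Symbols were matched to 62700 of 70116 Ensembl IDs. Positions and exon lengths came from GENCODE release 29 (58261 IDs, version ignored), and promoters from RefSeq. The test was the quasi-likelihood F test of edgeR 4.0.16 in R 4.3.3 (limma 3.58.1), with TMM factors (0.977 to 1.015), robust fitting and the default low-count filter, leaving 19408 genes with 99.91% of counts. All 9 libraries entered 1 model with 6 residual degrees of freedom, and p-values were Benjamini-Hochberg adjusted over all tested genes. Replicate pairs differed by more than sampling noise (3.45 to 10.7 chi-square units per degree of freedom). On counts simulated for the first comparison over 19408 genes, 108 genes were changed by 0.5 (log2) and 92 by 1. The fit called 58.5% of the former and 80.7% of the latter. In the measured libraries that comparison called 43.7% of all tested genes, and the members' median was -0.22. How often the fit calls a gene at a change that small, or with that many genes changed, was not tested.

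Named members were the 8 highest and 8 lowest log2 fold changes per comparison (4 and 4 in the third) among those called, with groups that did not overlap and a mean of at least 1 CPM, and the 3 highest and lowest per length, the MRPS18 paralogs, the members with few counts and EIF2AK3.

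Set numbers are shared between groups. Over 12932 genes, deviations from group means correlated at 0.176 to 0.541 in 9 of 9 pairs with the same number, and at -0.401 to 0.0714 with different numbers. On these correlations, and on no label, an alternative fit had the set number as a block. The main fit had the group only and did not pair libraries by set. Other alternatives were median-of-ratios size factors, no low-count filter, DESeq2 1.42.0, limma-voom, only the 6 libraries compared, leaving out each library, subtracting the regional median, the structural subunits, members of at least 10 CPM and, added after seeing the data, leaving out members with overlapping exons or under 2000 counts, and other windows.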

Additional observations from a re-analysis of the deposited data

How the results depend on the processing

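Of 213 recomputed counts and medians 200 stayed within 1.5 times the reported count or the spread between libraries, and no median of the members changed sign. The number of members that rose on palbociclib in wild-type cells, 2, was 1 with no low-count filter, 1 with limma-voom and 0 to 2 without 1 library (0 without vehicle library 3). The number that fell, 49, was 28 of the 41 members without overlapping exons or low counts, and the number that rose in the knockout against wild-type cells on the drug, 21, was 13 of them, since fewer genes were counted. That choice was made after seeing the data. Leaving out 1 library gave 35 to 49 falling on palbociclib and 15 to 21 rising in the knockout. The median on palbociclib was -0.241 to -0.188 without 1 library and -0.187 after subtracting the regional median, and that in the knockout was 0.054 to 0.112 without 1 library. The difference between subunits in the knockout, -0.029, ran from -0.046 to 0.016 without 1 library, so its sign is not settled.

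With the replicate block, 2 members rose and 51 fell on palbociclib, 23 and 8 in the knockout against wild-type cells on the drug, and 13 and 40 in the knockout against vehicle. In that last comparison MRPL17, MRPL36 and MRPS34 were added higher and MRPL57, MRPS2 and MRPS7 lower. The block ended no call among members, and its effect on other gene lists stands beside some of their counts. On palbociclib it also gave 9 assembly factors, 16 mtDNA genes and 1 epithelial marker lower. In the knockout against wild-type cells it gave 8 assembly factors, 34 respiratory chain subunits and 67 cytosolic ribosomal proteins higher. It gave 4 respiratory chain subunits and 4 regulators lower there, and 3 mesenchymal and bone markers higher and 3 lower. Of 32 named pairs of a member and a comparison, 26 kept their call under all 15 alternatives. MRPS24, MRPL2 and MRPL38 were tested with under 2000 counts in all, and their SEs on palbociclib were 0.22, 0.13 and 0.12. What depth or overlapping exons had to do with this was not tested.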
